A study of Mus musculus with 5 samples.

Results

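A set of 10 genes of T cell costimulation and checkpoint control was followed across leukocytes of the prediabetic pancreas. The set holds the receptors Cd28, Icos, Pdcd1, Lag3, Tigit and Havcr2, the ligands Cd80, Cd86 and Cd274, and Cd40lg, a ligand that T cells themselves carry. They were chosen by name from the 19938 genes with a probe set of their own, and each was read from its probe set of highest mean. All 10 were found. Of these 5 (Cd28, Icos, Lag3, Tigit and Cd274) passed the expression filter, a mean log2 intensity of at least 6, as did 6603 of all genes.

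The cells were CD45+ leukocytes, taken by flow sorting from the pancreas of 5 female wild-type NOD mice of 10 weeks, and the RNA of each mouse was hybridised to 1 array. NOD is an inbred strain that develops autoimmune diabetes spontaneously, and the labels name no transgene or treatment. The mice form 1 group and differ in the T2 relaxation time of the pancreas, measured by MRI before the tissue was taken: 35.3, 35.24, 32.77, 30.02 and 28.98 ms for mice 1 to 5. The question was therefore how expression varied over the mice and with T2. Which T2 values go with a heavier infiltrate is not given in the sources used here.

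A T cell that meets its antigen needs a second signal, which CD28 delivers when it binds the B7 ligands CD80 or CD86 on a presenting cell. ICOS and CD40 ligand extend that help, while PD-1, LAG-3, TIGIT and TIM-3 restrain the cell, PD-1 through its ligand PD-L1. In NOD mice these pathways are known to set how fast insulitis turns into diabetes, and blockade of PD-1 or PD-L1 speeds up disease.

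Ptprc, the gene of CD45, read between 1962 and 2357 on the 5 arrays, and its slope on T2 was 0.0094 ± 0.017 log2 per ms (moderated standard error, n = 5). The sorted cells held transcripts of the T cell, B cell, macrophage and dendritic cell lists. Over listed genes past the filter, the means were 8.20 ± 0.30, 8.73 ± 0.38, 8.24 ± 0.64 and 7.51 ± 0.12 log2 (SD, n = 5). The neutrophil list, averaged in the same way, was at 7.84 ± 0.82, the widest spread of these lists. The filter itself keeps each of these means at 6 or above. In the dendritic cell list Zbtb46, Xcr1, Clec9a and Batf3 lay under the filter, and H2-Ab1 and Ccr7 had the highest values. None of the islet endocrine or fibroblast markers passed the filter, but 1 of 5 endothelial genes (Pecam1, which leukocytes also express) and 3 of 5 acinar genes did. The acinar list, of digestive enzymes of the exocrine pancreas (Ctrb1, Cpa1 and Cela1), averaged 7.69, 6.80, 7.18, 7.20 and 7.36 log2 in mice 1 to 5. It was highest in mouse 1 and lowest in mouse 2, and its part in the results was not tested. In sorted but mixed cells, fewer cells of a type and less RNA per cell cannot be told apart. No batch is named in the labels, and the T2 values fall in the order of the mouse numbers.

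Reference promoters are shown for 4 members whose order over the mice differed, the receptors Pdcd1 and Tigit and the ligands Cd80 and Cd274. Each is the 250 bases upstream of the start site that RefSeq lists on GRCm38.p6, from the C57BL/6J genome and not from NOD. They lie at chr1:94052554-94052803 (minus strand), chr16:43664185-43664434 (minus strand), chr16:38458683-38458932 (plus strand) and chr19:29367188-29367437 (plus strand). Capitals mark matches on either strand to 5 motifs of factors that act in activated lymphocytes and presenting cells: the NFAT core GGAAA, AP-1 TGANTCA, NF-kB (GGG and CC with 5 bases between them), the STAT site TTCNNNGAA and the IRF site (GAAA repeated after 2 bases).
Pdcd1: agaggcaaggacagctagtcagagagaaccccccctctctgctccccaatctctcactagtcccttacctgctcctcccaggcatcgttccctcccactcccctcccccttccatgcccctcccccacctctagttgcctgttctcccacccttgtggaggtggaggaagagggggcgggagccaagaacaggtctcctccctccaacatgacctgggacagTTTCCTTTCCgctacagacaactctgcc
Tigit: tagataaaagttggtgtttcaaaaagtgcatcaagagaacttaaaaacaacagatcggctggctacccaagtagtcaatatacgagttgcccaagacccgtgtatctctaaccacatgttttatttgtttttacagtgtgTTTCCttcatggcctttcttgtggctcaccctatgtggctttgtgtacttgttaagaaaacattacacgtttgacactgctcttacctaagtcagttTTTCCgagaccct
Cd80: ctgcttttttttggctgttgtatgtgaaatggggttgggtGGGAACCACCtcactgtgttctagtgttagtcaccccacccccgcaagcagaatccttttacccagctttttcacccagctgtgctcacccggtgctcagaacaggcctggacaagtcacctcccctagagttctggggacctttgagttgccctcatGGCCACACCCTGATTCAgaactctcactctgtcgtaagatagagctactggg
Cd274: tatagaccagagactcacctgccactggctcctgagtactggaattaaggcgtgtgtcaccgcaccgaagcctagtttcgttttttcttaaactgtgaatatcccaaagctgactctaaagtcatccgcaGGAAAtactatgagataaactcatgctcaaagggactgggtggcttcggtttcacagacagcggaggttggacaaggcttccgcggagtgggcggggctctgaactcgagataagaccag
The Pdcd1 window held 2 NFAT cores side by side, starting 28 and 23 bases before the start site, and Tigit held 2, at 110 and 13 bases. Cd274 held 1 NFAT core at 120 bases. Cd80 held an AP-1 match 42 bases before its start, which directly follows an NF-kB match at 52 bases, and a further NF-kB match at 210 bases. None of these 4 windows held the STAT or the IRF motif. Of 32851 RefSeq windows of this length, 55.6% held the NFAT core, 45.8% NF-kB, 6.75% AP-1, 7.02% the STAT motif and 2.98% the IRF motif. Havcr2, the other member in the promoter table, held an AP-1 match at 200 bases and no other. A match is a run of letters, and no binding was measured here.

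Among the receptors, the activating pair Cd28 and Icos was highest in mouse 2 and lowest in mouse 1, although these mice have nearly the same T2. Cd28, the main costimulatory receptor of T cells, read 202, 295, 227, 227 and 258 in mice 1 to 5. Mouse 2 stood highest and mouse 5 second, so high values lay at both ends of the T2 range. The slope of Cd28 on T2 was -0.0022 ± 0.037 log2 per ms, a fitted fold of 1.01 over the T2 span of 6.32 ms (95% interval 0.642 to 1.59; limma adjusted p = 1 over 6603 genes). Icos, the inducible costimulator that CD28 signals bring up, read 95.1, 143, 118, 101 and 104 in mice 1 to 5. Only mice 2 and 3 lay above its mean. Its slope was 0.031 ± 0.038, with a fold of 1.15 toward high T2 (0.719 to 1.82; limma adjusted p = 0.869).

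Pdcd1 and Lag3, both inhibitory, were also highest in mouse 2, and Pdcd1 had its lowest value in the mouse of lowest T2. Pdcd1, which encodes PD-1, read 59.1, 69.7, 62.7, 59.1 and 38.5 in mice 1 to 5. Mouse 5 lay below the other mice, which were within a narrow band; 19.2% of all genes were lowest in mouse 5 alone. The gene is under the filter at a mean log2 of 5.83 ± 0.33 (SD, n = 5). In the fit over all 19938 genes its slope was 0.084 ± 0.040 log2 per ms, the steepest positive slope of the 10, with a fold of 1.44 toward high T2 (0.870 to 2.39; limma adjusted p = 0.813, unadjusted p = 0.111). That slope rested on mouse 5, and without it was 0.022.

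Lag3, a relative of CD4 that binds MHC class II, read 51.9, 85.9, 82.0, 71.7 and 62.1 in mice 1 to 5. From mouse 2 to mouse 5 the values followed the order of T2, and mouse 1, of the highest T2, was the lowest of all. Its slope was 0.0053 ± 0.052 (limma adjusted p = 1). Without mouse 1 the slope was 0.070, and without mouse 2 it was -0.036.

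Tigit and Havcr2 did not share this peak. Tigit, an inhibitory receptor for the poliovirus receptor Pvr, read 74.3, 85.7, 85.7, 98.5 and 68.8 in mice 1 to 5. It was highest in mouse 4 and lowest in mouse 5, the mice of lowest T2. Its slope was 0.00086 ± 0.035, with a fold of 1.00 (0.648 to 1.56; limma adjusted p = 1). Havcr2, the gene of TIM-3, which myeloid cells express besides T cells, read 48.5 on 4 arrays and 44.0 in mouse 5. Equal values on 3 or more arrays occurred in 58.9% of all genes and in 38.2% of those past the filter. The slope of Havcr2 was 0.014 ± 0.0086, and without mouse 5 it was 0.

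Cd40lg, the activation-induced ligand through which T cells license B cells and dendritic cells, read 29.3 in mouse 1, 43.3 in mouse 2 and 34.1 in each of the others. It lay under the filter, at a mean log2 of 5.12 ± 0.20 (SD, n = 5), and like Cd28 it was highest in mouse 2 and lowest in mouse 1. Its slope was 0.010 ± 0.036 (limma adjusted p = 1 over 19938 genes).

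**Figure D1:**
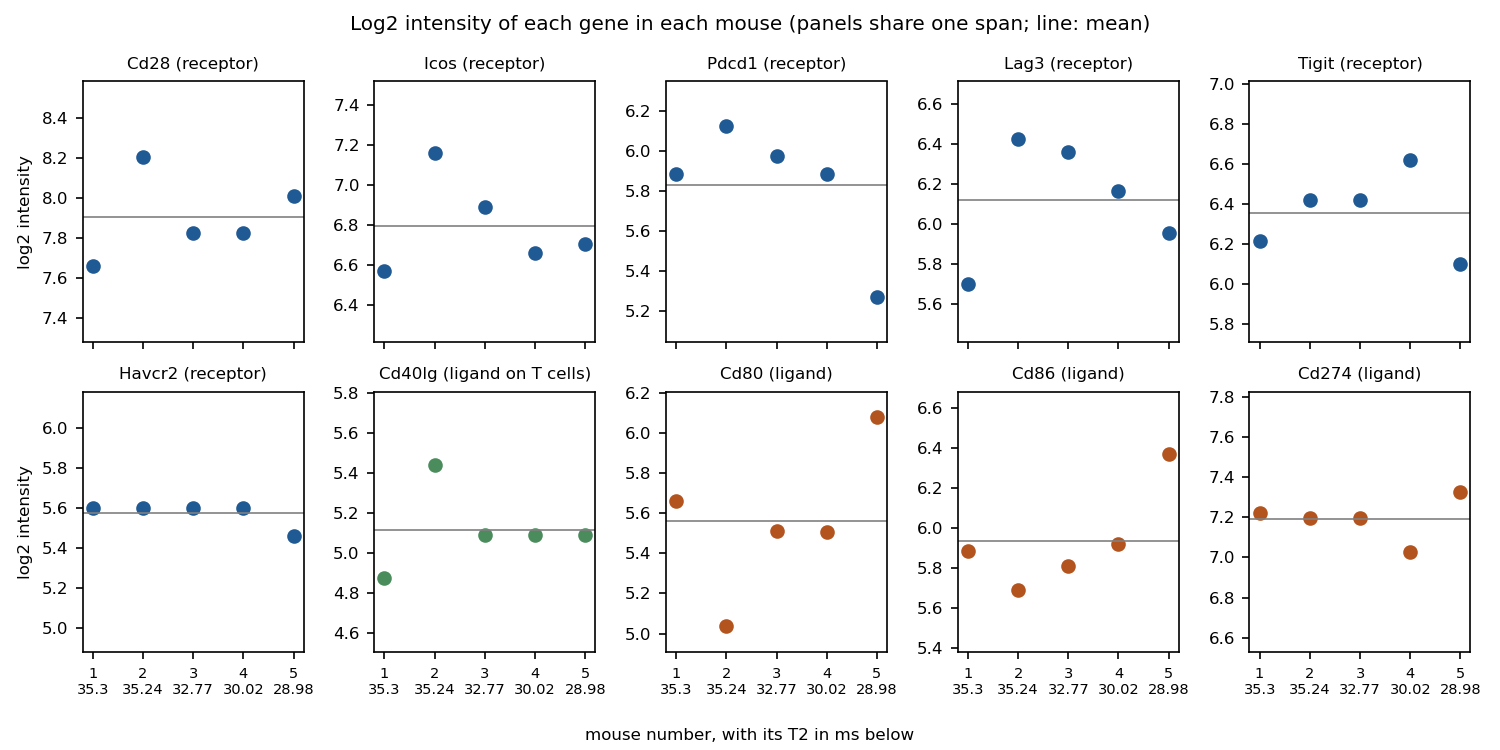
Log2 intensity of each of the 10 genes (vertical axis) in the 5 mice (horizontal axis, mouse number with its T2 in ms); points are single arrays and the line is their mean. Cd28, Icos, Pdcd1, Lag3 and Cd40lg have their highest point in mouse 2, and Cd80, Cd86 and Cd274 in mouse 5.

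The ligands had another order. Cd80, Cd86 and Cd274 were all highest in mouse 5, the mouse of lowest T2, and Cd80 and Cd86 were lowest in mouse 2, where most receptor genes peaked. Mouse 5 alone was highest for 34.3% of genes past the filter and 19.8% of all genes, and mouse 2 alone was lowest for 23.6% and 15.4%. Cd80 (B7-1), the ligand that activated presenting cells bring up, read 50.7, 32.8, 45.7, 45.5 and 67.6 in mice 1 to 5. The highest value was 2.06 times the lowest, the widest range of the 10 genes. A second Cd80 probe set read 36.1, 22.1, 31.2, 29.5 and 38.9, with the same mice at both ends. Cd86 (B7-2), the more constitutive B7 ligand, read 59.2, 51.7, 56.1, 60.5 and 82.9 in mice 1 to 5. It rose from mouse 2 to mouse 5 as T2 fell, and mouse 1 lay between mice 3 and 4.

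Cd80 and Cd86 had the steepest negative slopes of the set, and neither passed the test. The slope of Cd80 was -0.084 ± 0.051 log2 per ms, a fold of 1.45 toward low T2 (95% interval 0.752 to 2.78; limma adjusted p = 0.813 over 19938 genes, unadjusted p = 0.184). That of Cd86 was -0.069 ± 0.030, a fold of 1.35 (0.924 to 1.98; limma adjusted p = 0.813, unadjusted p = 0.0902). Permuting T2 exactly among the mice (120 arrangements) gave two-sided p = 0.05 for Cd86, p = 0.0667 for Pdcd1 and p = 0.258 for Cd80, not corrected for the 10 genes tested; the smallest p that 5 mice allow is 0.00833. Both B7 slopes kept their sign without each mouse, but without mouse 5 they were -0.032 for Cd80 and -0.023 for Cd86. Cd80 and Cd86 are under the filter, at mean log2 values of 5.56 ± 0.37 and 5.94 ± 0.26 (SD, n = 5).

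Cd274, the gene of PD-L1, was nearly level. It read 149, 147, 147, 131 and 160 in mice 1 to 5, a range of 1.23 times, and its slope was 0.00080 ± 0.019 (fold 1.00, 0.795 to 1.27; limma adjusted p = 1). The interval leaves room for a fitted fold of 1.27 toward high T2. With its lower end at 0.795, a change toward low T2 is not excluded either. The neighbour of Cd274 on its chromosome, Pdcd1lg2, which encodes the other PD-1 ligand, was under the filter, with a mean log2 of 4.72 ± 0.16 (SD, n = 5) and a slope of 0.0016 ± 0.028.

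By level, 4 of 6 receptors and 1 of 3 ligands passed the filter; intensities of different probe sets depend on their probes, so the genes are not ranked against each other. By slope, 5 of 6 receptors lay above 0 and 2 of 3 ligands below 0, where 67.9% of genes past the filter, and 46.3% of all genes, lay below 0, and 28.9% of those past the filter above it. The median slope was 0.0099 over the receptors and -0.069 over the ligands, members under the filter included. Beside these, the median was 0 over all genes and -0.0074 over those past the filter. None of the 5 members past the filter passed the limma adjusted threshold of 0.05, as 0% of the 6603 genes did. At an unadjusted p under 0.05 there were none among the 10 either, where 5.29% of the genes past the filter and 3.24% of all genes lay. That count changed with the processing: Cd86 had an unadjusted limma p of 0.0366 with arrays centred on their medians, 0.0457 after a further quantile normalization and 0.0420 without genes of equal values, where Pdcd1 had 0.0444. With single mice left out, Icos (0.0134) and Lag3 (0.0235) were under 0.05 in limma without mouse 1, and Havcr2 (0.0485) without mouse 4. These medians rest on few genes and single mice: without mouse 1 the receptor median was 0.052, without mouse 5 the ligand median was -0.023, and over members past the filter the ligand value is that of Cd274 alone.

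**Figure D2:**
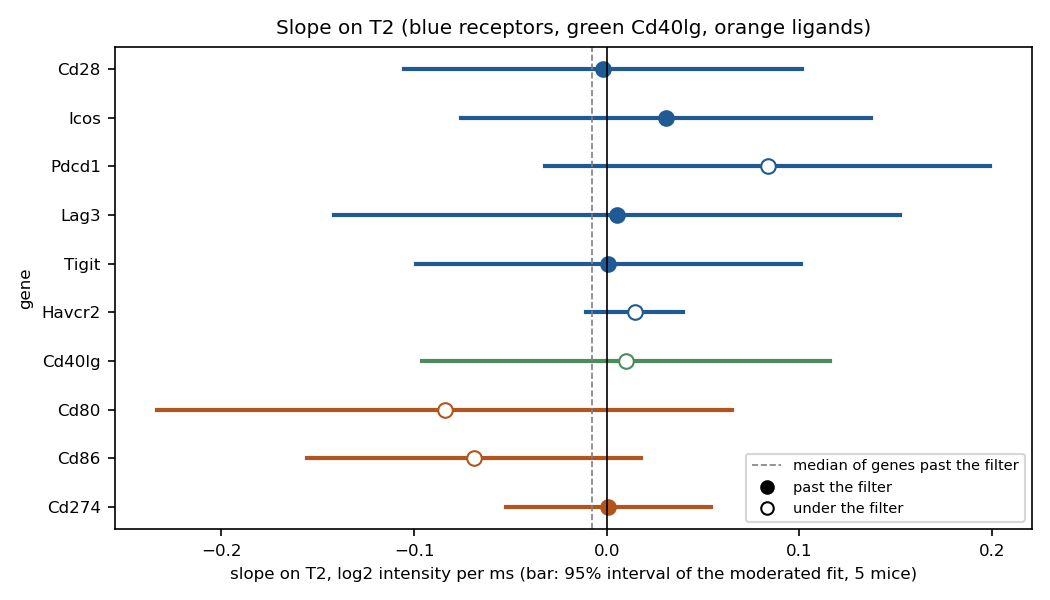
Slope on T2 in log2 intensity per ms (horizontal axis) of each gene (vertical axis), with the 95% interval of the moderated fit over 5 mice. Filled points passed the expression filter; every interval includes 0, with Pdcd1 farthest to the right at 0.084 and Cd80 farthest to the left at -0.084.

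Mice 1 and 2 show how these genes differed at nearly the same T2. Their T2 differs by 0.06 ms, yet mouse 2 was higher by 1.65 times for Lag3, 1.48 times for Cd40lg and 1.46 times for Cd28, while Cd80 was 1.55 times higher in mouse 1. The other members besides Icos differed less in this pair: Pdcd1 was 1.18 times and Tigit 1.15 times higher in mouse 2, Cd86 was 1.14 times and Cd274 1.02 times higher in mouse 1, and Havcr2 was equal. For Cd28, Icos, Lag3 and Cd40lg the pair spans the whole range of the 5 mice.

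T cell genes shared the high value of mouse 2 with 4 of the 6 receptors, and the low value of mouse 1 with 3 of them. All 14 genes of the T cell list past the filter, from Cd3e to Cd8a, were highest in mouse 2, and 11 of them were lowest in mouse 1. Of the 7 members that T cells carry, 5 were highest in mouse 2 and 4 lowest in mouse 1. Over all genes, 14.9% had their single highest value in mouse 2, and 12.3% of those past the filter did. Mouse 1 alone was lowest for 15% of all genes and 15.9% of those past the filter. The mean of the T cell list was 7.84, 8.64, 8.21, 8.25 and 8.06 log2 in mice 1 to 5, a difference between mice 1 and 2 of 1.75 times. Cd4, the coreceptor of helper T cells, read 221 and 447 in mice 1 and 2.

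Relative to the mean of these T cell genes in the same mouse, 4 of the 7 members carried by T cells varied less than before. The range over the mice narrowed from 0.73 to 0.36 log2 for Lag3, from 0.59 to 0.33 for Icos, from 0.56 to 0.24 for Cd40lg and from 0.55 to 0.40 for Cd28. It stayed at 0.84 for Pdcd1, against 0.86 before, and widened from 0.52 to 0.60 for Tigit and from 0.14 to 0.81 for Havcr2. As Havcr2 was equal in mice 1 to 4, its relative range is just the difference of the T cell list between mice 1 and 2. Relative to the T cell genes, Pdcd1 was highest in mouse 1, at -1.95 log2, and lowest in mouse 5, at -2.79, and its slope was 0.067 ± 0.048 log2 per ms (exact permutation p = 0.267). Cd28 was highest in mouse 5, at -0.04, and lowest in mouse 2, at -0.44. Tigit was highest in mouse 1, at -1.62, and mouse 4, at -1.63. None of the 7 relative slopes stood out from the spread between mice, with exact permutation p between 0.267 and 0.950 (two-sided, unadjusted, 5 mice). The smallest p that 5 mice allow is 0.00833, so a single member could not have passed after adjustment.

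**Figure D3:**
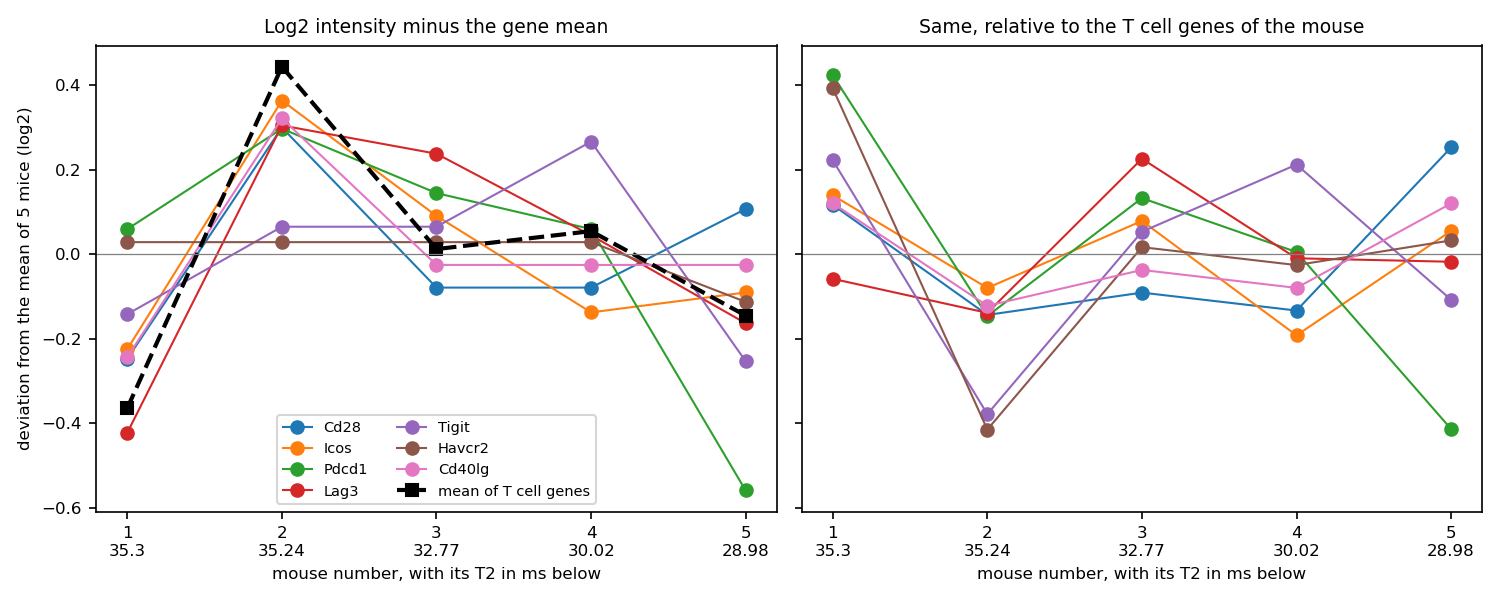
Deviation of each T cell-borne member from its own mean over the 5 mice, in log2 (vertical axis), by mouse (horizontal axis, with T2 in ms), before (left) and after (right) subtracting the mean of 14 T cell genes (black dashes, left); lines join the values of a gene. Lag3, Icos, Cd28 and Cd40lg have a narrower range at right, with Cd28 high in mouse 5 in both panels, and Pdcd1 keeps its low value in mouse 5.

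Genes with the most similar profile over the 5 mice were sought for the 4 T cell members past the filter with a range of at least 0.5 log2, by the root mean square difference of mean-centred log2 values. For Cd28 these were Sidt1 (0.026 log2), Pate11 (0.035) and Saraf (0.042), where the median over genes past the filter was 0.20. For Icos they were Txk, a T cell kinase of the Tec family (0.044), Gm12250 (0.057) and Adh1 (0.070), with a median of 0.24. Lag3 was closest to Prf1, the perforin gene of killer cells (0.057), Thy1, a T cell surface marker (0.057), and the T cell receptor segment Trbv1 (0.069), with a median of 0.29. Tigit was closest to Cdca7 (0.022), Tubb5, a beta tubulin (0.042), and Fkbp1a (0.048), with a median of 0.21. All these profiles share the same 5 arrays, and the likeness is a description of them.

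The ligands are carried by several presenting cells, whose transcripts did not vary together. The B cell list averaged 9.17, 8.28, 8.40, 8.85 and 8.95 log2 in mice 1 to 5, over 9 of 10 listed genes past the filter. The macrophage list, 9 of 12 genes, averaged 7.53, 7.65, 8.26, 8.86 and 8.88, and the dendritic cell list, 7 of 11 genes, 7.33, 7.43, 7.61, 7.55 and 7.61. Of 9 B cell genes, 4 were lowest in mouse 2 and 5 in mouse 3. Of 9 macrophage genes, 5 were highest in mouse 5 and 4 in mouse 4. The dendritic cell list was highest in mice 3 and 5, which were nearly equal. Cd80 and Cd86 shared the low value of mouse 2 with the B cell list mean. They shared the high value of mouse 5 with the macrophage list mean, and the part of either in their profile was not tested. Relative to the macrophage list the slopes of Cd80 and Cd86 turned positive, 0.13 ± 0.072 and 0.15 ± 0.052. That of Cd274 was 0.22 ± 0.038, while the macrophage list itself had a slope of -0.22 ± 0.019. Its 9 genes differed in slope, from -0.45 for Vsig4 and -0.28 for C1qc to -0.071 for Csf1r and -0.066 for Cd68. Slopes relative to this list therefore depend on which macrophage genes it holds. Relative to the B cell list Cd80 and Cd86 had slopes of -0.049 ± 0.048 and -0.034 ± 0.058, beside 0.035 ± 0.072 for Cd274. Relative to the dendritic cell list they had -0.051 ± 0.062 and -0.036 ± 0.041, beside 0.034 ± 0.024. That list had a slope of -0.033 ± 0.014, with 4 genes below 0 and 3 above, from -0.17 for Fscn1 to 0.011 for Ccr7. Its mean leaves out Zbtb46, Xcr1, Clec9a and Batf3, which lay under the filter.

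**Figure D4:**
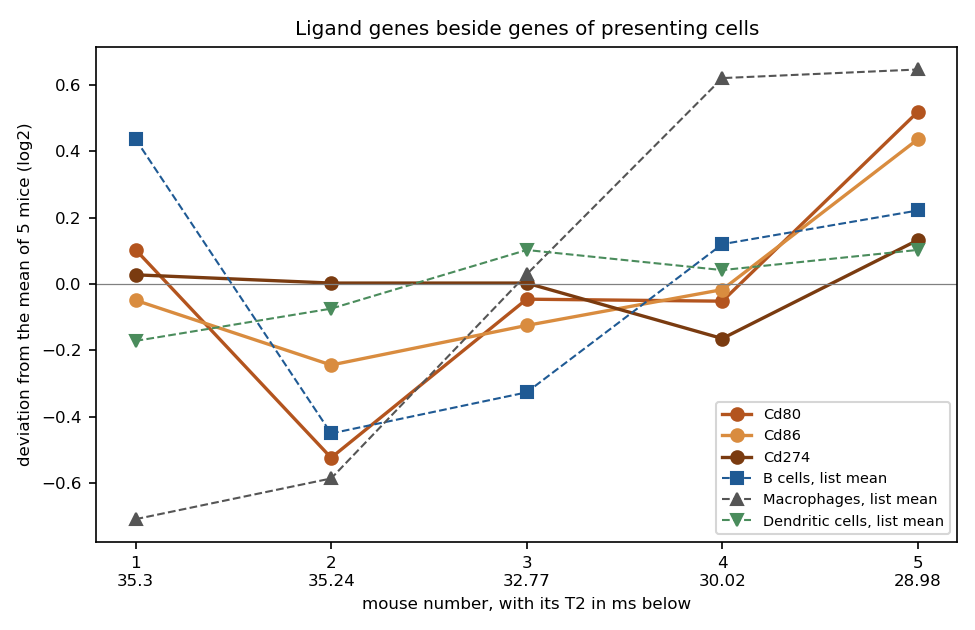
Deviation of Cd80, Cd86 and Cd274 (solid) and of the means of the B cell, macrophage and dendritic cell lists (dashed) from their own mean over the 5 mice, in log2 (vertical axis), by mouse (horizontal axis, with T2 in ms). Cd80 and Cd86 are lowest in mouse 2 and highest in mouse 5, and Cd274 stays within 0.17 log2 of its mean.

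Other genes of the pathway were read from 11 lists, of which 51 genes besides the members passed the filter. None of them passed the adjusted threshold, 1 had an unadjusted limma p under 0.05 (1.96%, beside 5.29% of genes past the filter, 4.59% with a slope below 0 and 0.697% above), and 32 had a slope below 0, near the 67.9% of genes past the filter. Among the CD28 family, Ctla4, the inhibitory competitor of Cd28 for the B7 ligands, is the gene between Cd28 and Icos on the chromosome. It read 62.4, 67.9, 62.4, 51.6 and 59.6 in mice 1 to 5, under the filter, with a slope of 0.037 ± 0.018. Like its neighbours it was highest in mouse 2, but it was lowest in mouse 4. Btla, an inhibitory receptor of B and T cells, was highest in mouse 1 at 432 and lowest in mouse 3 at 228.

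Among the other ligands, Icosl, the partner of Icos, read 181, 133, 116, 181 and 149 in mice 1 to 5, with a slope of -0.014 ± 0.049. It did not mirror Icos, being highest in mice 1 and 4. Vsir, the B7-like gene of VISTA, read 369, 388, 499, 515 and 470, at a slope of -0.061 ± 0.023 and a fold of 1.30 toward low T2 (0.986 to 1.72; limma adjusted p = 0.828). Pvr, the Tigit ligand, read 44.6 in mouse 1, 49.7 in mice 2, 3 and 4 and 70.7 in mouse 5, under the filter. Like Cd80, Cd86 and Cd274 it was highest in mouse 5, but it was picked after its values were seen. No other listed ligand of inhibitory receptors was. Lgals9 was highest in mouse 4, Lgals3, Cd48, Nectin2 and Fgl1 in mouse 3, Tnfrsf14 in mouse 2 and Cd200 in mouse 1. Tnfrsf14 and Lgals3, of the ligands of inhibitory receptors, had slopes of 0.011 ± 0.022 and -0.020 ± 0.045.

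Of the TNF family costimulators, 3 of 6 genes on T cells and 1 of 6 partners passed the filter. Tnfrsf4 (OX40), a costimulator of activated and regulatory T cells, read 72.3, 90.7, 81.0, 72.3 and 61.0 in mice 1 to 5 and had a slope of 0.053 ± 0.026 (limma adjusted p = 0.828). Tnfrsf18 (GITR) had a slope of 0.014 ± 0.016. Cd40, the receptor of CD40 ligand, read 145 in mouse 1 and between 118 and 121 in the others, the reverse of Cd40lg in mouse 1. Foxp3, which marks regulatory T cells, cells that carry Icos, Ctla4 and Tigit at high levels, read 67.7, 93.5, 65.1, 67.7 and 61.8.

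Among the remaining inhibitory receptors and costimulators, Ceacam1, an adhesion molecule that inhibits T and myeloid cells, had a slope of -0.059 ± 0.029 and Lair1, a collagen receptor, -0.0097 ± 0.0053. Cd2 and Cd84, costimulators of the adhesion and SLAM families, had slopes of 0.0056 ± 0.011 and -0.024 ± 0.022. Downstream of the T cell receptor and CD28, 10 of 13 genes had slopes below 0 (67.9% of genes past the filter did), none with an unadjusted limma p under 0.05; Akt1, a kinase that CD28 signals reach, had -0.018 ± 0.011 and the adaptor Lcp2 -0.016 ± 0.017. Of 10 phosphatases and signal inhibitors 8 were below 0, again beside 67.9%, with Ptpn11 (SHP-2), a phosphatase recruited by PD-1, at -0.024 ± 0.012 and Ubash3b at -0.025 ± 0.014.

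Entpd1 was the gene with an unadjusted p under 0.05. It encodes CD39, an ectoenzyme of regulatory and chronically stimulated T cells that B cells and macrophages also carry, and read 185, 198, 218, 225 and 270 in mice 1 to 5. Its order is the reverse order of T2 in all 5 mice, with a slope of -0.066 ± 0.014 and a fold of 1.34 (1.12 to 1.59; limma unadjusted p = 0.0101, adjusted p = 0.530 over 6603 genes, exact permutation p = 0.00833, the smallest that 5 mice allow). The macrophage list beside it had the same direction, and its part in Entpd1 was not tested. Of the same list, Batf had a slope of 0.0085 ± 0.0050. Tnf, the 1 cytokine gene of 6 past the filter, read 137, 110, 108, 106 and 97.6, falling with T2, with a slope of 0.047 ± 0.021 (limma adjusted p = 0.828). Il2, Il21 and Ifng were under the filter, with mean log2 values of 3.05, 3.44 and 4.17.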

How the data were processed

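CD45+ pancreatic leukocytes of 5 NOD mice were measured on 1 array each. The authors deposited linear probe-set intensities from RMA, run with Affymetrix Power Tools according to the submitters' processing notes. The version of neither, nor the genome build, is given in the sources used here. This method includes quantile normalization. The deposited probe-set values had array medians from 23.8 to 24.5 and do not share a common distribution. Intensities were transformed to log2 here. Symbols came from GEO's platform annotation: 21789 probe sets have 1 symbol, 1621 several (not named) and 12146 none; the probe set of highest mean stood for a gene. All 10 members matched RefSeq (GRCm38.p6) by gene identifier with the same symbol.

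With limma 3.58.1 in R 4.3.3 (lmFit, eBayes), a slope on T2 was fitted to log2 intensity for genes with a mean log2 of at least 6, leaving 3 residual degrees of freedom; tests were two-sided with Benjamini-Hochberg adjustment at 0.05, and members under the filter take their values from the same fit without it. Standard errors of single genes are moderated, those of lists and relative slopes ordinary least-squares. With fewer than 6 mice no correlation across mice is given. The number of arrays limits the precision. The fit was tested on simulated data with planted slopes steeper than that of any member, so the test does not cover slopes of the members' size.

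The members, gene lists and tests were chosen with earlier results of these data known. Named genes were the members, fixed partner and marker genes, the 2 of largest moderated t in each pathway list with any under p of 0.05, and the 3 nearest profiles; Pvr, the cytokines under the filter, the counts by mouse of highest value and the comparison of ligands with presenting cell lists were chosen after the values were seen. Alternatives were other filters, normalizations, probe-set rules, ranks of T2, variance models, removal of genes with equal values and each mouse left out.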

Additional observations from a re-analysis of the deposited data

Results flagged for a closer look

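A mouse was flagged where its gap to the nearest other mouse, divided by the range of all 5, was above 0.71. Of 75 values checked (single genes, list means and relative members) 8 were flagged, where chance flags about 1 in 20 groups of independent, untied values. The list means share genes with the single values, and 2 of the flagged genes have 3 or more equal arrays, so that rate is only a guide. Pdcd1 was low in mouse 5, at 5.27 against 5.89 to 6.12 log2 (gap share 0.723). Havcr2 was low in mouse 5 with the other arrays equal (gap share 1). Foxp3 was high in mouse 2, at 6.55 against 5.95 to 6.08 (0.782), and the regulatory T cell list, which holds it, averaged 6.66 there against 6.24 to 6.35 (0.730). Cd40 was high in mouse 1 (0.882), with 3 arrays equal. Akt1 and Ubash3b were low in mouse 2, with gap shares of 0.763 and 0.796. The mean of the other inhibitory receptors, a list with Lag3 and Tigit, was low in mouse 1, at 6.85 against 7.02 to 7.08 (0.759).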

How the results depend on the processing

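No member passed the adjusted threshold under any alternative run. No relative slope passed an exact permutation test adjusted over the members carried by T cells. The smallest p that 5 mice allow is 0.00833, so a single member could not have passed after adjustment. The same limit held for the permutation of each member's own slope, and neither permutation result is a check on single members. The count of genes past the threshold, 0 in the fit reported, was 3 with a filter of 7, 4 after a further quantile normalization, 35 without genes of equal values and 3 at a threshold of 0.10; it was 0 without each mouse. The ligand median, -0.069, was 0.00080 over members past the filter, and without single mice it ranged from -0.090 to -0.023; the receptor median ranged from -0.0083 to 0.052. Slopes near 0 changed sign: Cd28 was 0.010 after quantile normalization, and on ranks of T2 Lag3 was -0.016, Cd40lg -0.0057 and Cd274 -0.0027, and relative to T cell genes Tigit 0.0044 and Havcr2 0.021. Icos relative to Cd3d, Cd3e and Cd3g alone was -0.0063. Relative to the macrophage list, an alternative chosen after seeing the data, Cd80 was 0.13 and Cd86 0.15, values that depend on the genes listed.

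Leaving out each mouse in turn, slopes ranged from -0.046 to 0.034 for Cd28, -0.0086 to 0.077 for Icos, -0.036 to 0.070 for Lag3, -0.057 to 0.032 for Tigit, -0.032 to 0.051 for Cd40lg and -0.018 to 0.032 for Cd274; those of Pdcd1 (0.022 to 0.11), Cd80 (-0.13 to -0.032) and Cd86 (-0.090 to -0.023) kept their sign. Relative to T cell genes they ranged from -0.044 to 0.024 for Cd28, -0.0042 to 0.038 for Icos, -0.025 to 0.0036 for Lag3, -0.056 to 0.032 for Tigit, -0.062 to 0.056 for Havcr2 and -0.028 to 0.015 for Cd40lg, and only Pdcd1 kept its sign (0.025 to 0.11). No paired analysis was possible because the mice form 1 group. Cd80, Cd86, Pdcd1, Havcr2 and Cd40lg lie under the filter, though above the array medians of 23.8 to 24.5. Lag3, at a mean log2 of 6.12, is just past the filter. Small differences are least certain at such low intensities.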
